A study of Rattus norvegicus with 8 samples.

Results

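The early growth response (Egr) genes Egr1, Egr2, Egr3 and Egr4 and the genes of their corepressors, Nab1 and Nab2, were examined in the striatum of rats that self-administered methamphetamine (METH) or saline. These are 6 of 17337 genes with counts. The filter on low counts left 12014 genes for testing, among them each of the 6. The family was taken by gene name, but it was selected on measured values too, the CPM of these same METH and saline rats. For that reason the fold changes of the 6 genes are given as a description, with no p-value.

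The 8 samples came from 8 male Sprague-Dawley rats labelled as wild type (WT), 4 in each group. The METH rats had taken 0.05 mg/kg METH per infusion in sessions of 2 h per day for 16 days by pressing a lever (METH self-administered rats, here METH rats), and the saline rats had followed the same schedule with saline. Every rat had been trained with food pellets, had carried a jugular catheter and was killed under ketamine and xylazine. Rats with stable responding were picked, 4 in each group, from a larger number of METH than of saline rats. A smaller part of the METH rats was thus kept, and the methods describe this choice for plasma sampling. The interval from the last session to the collection of tissue, to which genes of this kind are known to be sensitive, is not given in the sources used here.

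Egr proteins are zinc finger transcription factors that bind GC-rich sites in promoters. Their genes are immediate early genes: synaptic activity acts through the kinase ERK on the factors SRF and Elk, which bind CArG boxes (the core of the serum response element), and through CREB, which binds cAMP response elements (CREs), and transcription then rises within minutes. Nab1 and Nab2 bind a repression domain found in Egr1, Egr2 and Egr3, Nab2 is known to recruit the chromatin complex NuRD, and the Nab2 gene is itself a known Egr target, so that it forms a feedback loop. In the striatum, Egr1 and Egr3 are known as markers of the response of projection neurons to dopamine and to psychostimulants.

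The promoters of Egr1, Egr2 and Egr4, the 3 members with the largest differences between the groups, are shown for the elements through which such genes are known to be induced, and that of Nab1 for its matches to the Egr site. The sequences are those of RefSeq for assembly GRCr8, which is a later build than the rn6 used for the counts. They run from 250 bases before to 50 bases after the start site, on the strand of the gene. Of the 6 genes, 5 had an entry in the promoter table; Egr3 had none. Capitals mark CArG boxes (CC, then 6 bases that are each A or T, then GG), the CRE core CGTCA and the Egr site GCGNGGGCG. Only exact matches were searched, on both strands.

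Egr1, chr18:26736828-26737127, plus strand: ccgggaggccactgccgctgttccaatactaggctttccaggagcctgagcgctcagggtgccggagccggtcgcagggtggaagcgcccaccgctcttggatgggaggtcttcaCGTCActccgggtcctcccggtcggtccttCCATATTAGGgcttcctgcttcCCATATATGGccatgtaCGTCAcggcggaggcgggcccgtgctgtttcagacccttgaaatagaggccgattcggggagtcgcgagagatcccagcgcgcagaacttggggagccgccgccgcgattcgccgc

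Egr2, chr20:21054392-21054691, minus strand: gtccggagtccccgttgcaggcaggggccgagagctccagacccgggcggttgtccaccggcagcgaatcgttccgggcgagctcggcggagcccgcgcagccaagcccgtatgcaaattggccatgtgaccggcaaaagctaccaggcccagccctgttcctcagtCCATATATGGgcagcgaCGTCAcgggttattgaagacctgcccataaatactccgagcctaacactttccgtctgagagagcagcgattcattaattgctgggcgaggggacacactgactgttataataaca

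Egr4, chr4:119607768-119608067, minus strand: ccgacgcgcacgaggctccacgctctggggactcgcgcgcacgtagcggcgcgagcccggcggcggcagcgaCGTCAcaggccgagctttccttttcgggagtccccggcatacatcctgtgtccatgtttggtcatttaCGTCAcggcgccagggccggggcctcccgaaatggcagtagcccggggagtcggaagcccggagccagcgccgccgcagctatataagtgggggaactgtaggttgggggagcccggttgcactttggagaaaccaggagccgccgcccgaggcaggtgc

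Nab1, chr9:56545392-56545691, plus strand: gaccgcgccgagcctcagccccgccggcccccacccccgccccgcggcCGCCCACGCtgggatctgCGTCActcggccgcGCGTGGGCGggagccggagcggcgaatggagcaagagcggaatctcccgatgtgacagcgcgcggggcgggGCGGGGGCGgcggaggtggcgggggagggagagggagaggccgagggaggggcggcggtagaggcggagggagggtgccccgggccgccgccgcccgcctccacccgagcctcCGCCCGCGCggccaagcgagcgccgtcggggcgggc

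Egr1 and Egr2 held the same CArG box, CCATATATGG, at the same distance from the start site, positions -83 to -74, counted from -1 at the base before the start. In both genes a CRE core followed at positions -66 to -62. Egr1 held 1 more CArG box, CCATATTAGG, at -105 to -96, and 1 more CRE core at -135 to -131. Egr4 held 2 CRE cores, at -178 to -174 and at -110 to -106, and no exact CArG box in this window. Near matches, such as ccatgtttgg in Egr4, were not counted. Among the 33469 rat promoters of this length, 1.64% held a CArG box, 21.2% a CRE core and 0.272% held both, as Egr1 and Egr2 did. The full CRE, TGACGTCA, which contains the core, was in 1.83% of promoters and in none of the 5 member promoters. These matches describe the letters in the windows and say nothing of binding.

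The Nab1 window held 4 matches to the Egr site, among them GCGTGGGCG at -170 to -162 and GCGGGGGCG at -99 to -91. Of all promoters, 4.98% held 1 or more such matches and 0.705% held 2 or more. The shares over all promoters were not matched to the GC content of the Nab1 window. Nab1 also held 1 CRE core and 10 matches to the GC box GGGCGG, a motif found in 33.1% of promoters, and some of these overlapped the Egr sites. The Nab2 window held none of the 5 motifs searched. GC content was 81.7% in the Nab1 window and 73.3% in the Nab2 window, against a median of 51.7% over all promoters, and it lay between 59.0% and 68.0% in the 3 Egr promoters.

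Expression is given as raw read counts and as CPM, the reads per megaread of the TMM-scaled library. Total counts lay between 18135939 and 20832550 in the saline rats and between 18520038 and 21211920 in the METH rats, so that 3 reads, taken as the floor of detection, stood for 0.142 to 0.169 CPM. Every member was far above this floor, from 108 reads for Egr2 in saline rat 3 to 9489 reads for Egr4 in METH rat 3. CPM values are compared between rats within a gene. They are not compared between genes, because transcript lengths were not used.

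A gene was called when its false discovery rate (FDR) in the edgeR quasi-likelihood test over all genes was below 0.05 and its mean log2 CPM was above 1. By this rule 0.516% of the genes tested were called, 0.449% as higher and 0.0666% as lower in METH rats. Of the 6 members, 3 were called higher, Egr1, Egr2 and Egr4, and 0 were called lower. In 4 members, these 3 and Nab2, every METH rat lay above every saline rat. Groups were separated in one direction or the other in 6.39% of all genes tested. Because the contrast was used to choose the family, nothing further is read from these counts. The median log2 fold change was 1.34 over the 4 Egr genes and 0.08 over the 2 Nab genes, and it was -0.01 over all genes tested.

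Certain features of the libraries bear on the members. The striatal projection neuron markers were abundant in every rat, with all 10 of 10 tested and a summed level of 14738 to 15675 CPM in saline and 15593 to 19611 CPM in METH rats. None of the 10 was called in edgeR, but at an unadjusted p below 0.05, 3 were higher in METH rats and 0 were lower. These 3, named after their values were seen, were Ppp1r1b (log2 fold change 0.25, FDR = 0.328 in edgeR), Pdyn (0.20, FDR = 0.369) and Drd2 (0.19, FDR = 0.421), and their groups overlapped. The dopamine receptor gene Drd1 was at -0.03. The part of these markers in the Egr and Nab values was not tested. Markers of cortical glutamatergic neurons, in which Egr genes are also expressed, summed to 93.0 CPM in saline rat 1. The same sum was 11.0 to 19.7 CPM in the other saline rats and 14.4 to 25.5 CPM in the METH rats, with METH rat 2 highest. Slc17a7, the vesicular glutamate transporter of cortical neurons, had 1198 reads in saline rat 1, 256 in METH rat 2 and 64 to 108 in the others. Of the 6 cortical markers listed, 5 were in the data, 2 passed the filter, and 0 of these had an unadjusted p below 0.05 in edgeR. METH rat 3 stood apart from the other rats on the first principal component, which carried 26.4% of the variance, at 39.5 against 0.257 to 5.29 in the other METH rats. The saline rats lay at -24.6 to -4.17, with saline rat 3 the lowest, so this component also parted the groups. Fewer cells of a type and less RNA per cell cannot be told apart in such bulk samples. Values of the members without saline rat 1, METH rat 2 or METH rat 3 are therefore given as well.

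Egr4, a factor found mainly in the nervous system, was at 133, 100.5, 137 and 141 CPM in saline rats 1 to 4. In METH rats 1 to 4 it was at 369, 304, 536 and 412 CPM. The lowest METH rat was 2.15 times as high as the highest saline rat, so the groups were far apart. The mean was 128 ± 18.6 CPM (SD, n = 4) in saline and 405 ± 97.8 CPM (SD, n = 4) in METH rats, a log2 fold change of 1.66 (standard error, SE, 0.15), which is 3.17-fold. METH rat 3 was the highest for this gene, and without it the log2 fold change was 1.50. Without saline rat 1 and METH rat 2, the lowest METH rat for this gene, it was 1.80.

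Egr2, a factor also called Krox20 and known for its role in hindbrain and Schwann cells, showed the largest relative difference. It was at 18.7, 6.90, 5.22 and 8.51 CPM in saline rats 1 to 4, from 108 to 341 reads. In METH rats 1 to 4 it was at 62.9, 31.2, 43.1 and 76.9 CPM, from 656 to 1459 reads. Saline rat 1 was well above the other saline rats, yet the lowest METH rat, rat 2, was still 1.67 times as high as saline rat 1. The means were 9.83 ± 6.07 CPM (SD, n = 4) in saline and 53.5 ± 20.3 CPM (SD, n = 4) in METH rats, with a log2 fold change of 2.45 (SE 0.35), or 5.48-fold.

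Saline rat 1, with the highest Egr2 level of its group, was also the rat with the high cortical markers. Without it the log2 fold change of Egr2 was 2.96, and without both saline rat 1 and METH rat 2, an alternative chosen after the data were seen, it was 3.15. Saline rat 1 was the highest saline rat and METH rat 2 the lowest METH rat for Egr2, so leaving them out could only enlarge the difference. The larger values therefore say nothing of the cortical transcripts, whose part in the Egr2 level of saline rat 1 was not tested. The robust form of the quasi-likelihood fit, which borrows less from the other genes for a gene of unusual spread, did not call Egr2. It called Egr1 and Egr4.

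Egr1, the best known member and a marker of neuronal activation, was at 113, 69.2, 92.9 and 100.04 CPM in saline rats 1 to 4. In METH rats 1 to 4 it was at 220.2, 153, 175 and 210.2 CPM. The groups did not overlap, with the lowest METH rat 1.36 times as high as the highest saline rat. The means were 93.8 ± 18.4 CPM (SD, n = 4) and 190 ± 31.0 CPM (SD, n = 4), with a log2 fold change of 1.02 (SE 0.14) or 2.02-fold. Without saline rat 1 and METH rat 2, the highest saline and the lowest METH rat for Egr1, the log2 fold change was 1.21. That larger value follows from the choice of rats. Without METH rat 3 the log2 fold change was 1.05.

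Egr3, which shares its DNA site with Egr1, did not separate the groups. It was at 59.2, 52.7, 91.1 and 69.2 CPM in saline rats 1 to 4 and at 65.4, 96.6, 62.5 and 90.9 CPM in METH rats 1 to 4. Each group held rats at both ends of the scale, and the ranges overlapped. The log2 fold change was 0.21 (SE 0.17), from 68.1 ± 16.8 to 78.9 ± 17.4 CPM (SD, n = 4 each). It ranged from 0.10 to 0.38 with 1 rat left out and was 0.04 without saline rat 1 and METH rat 2.

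**Figure D1:**
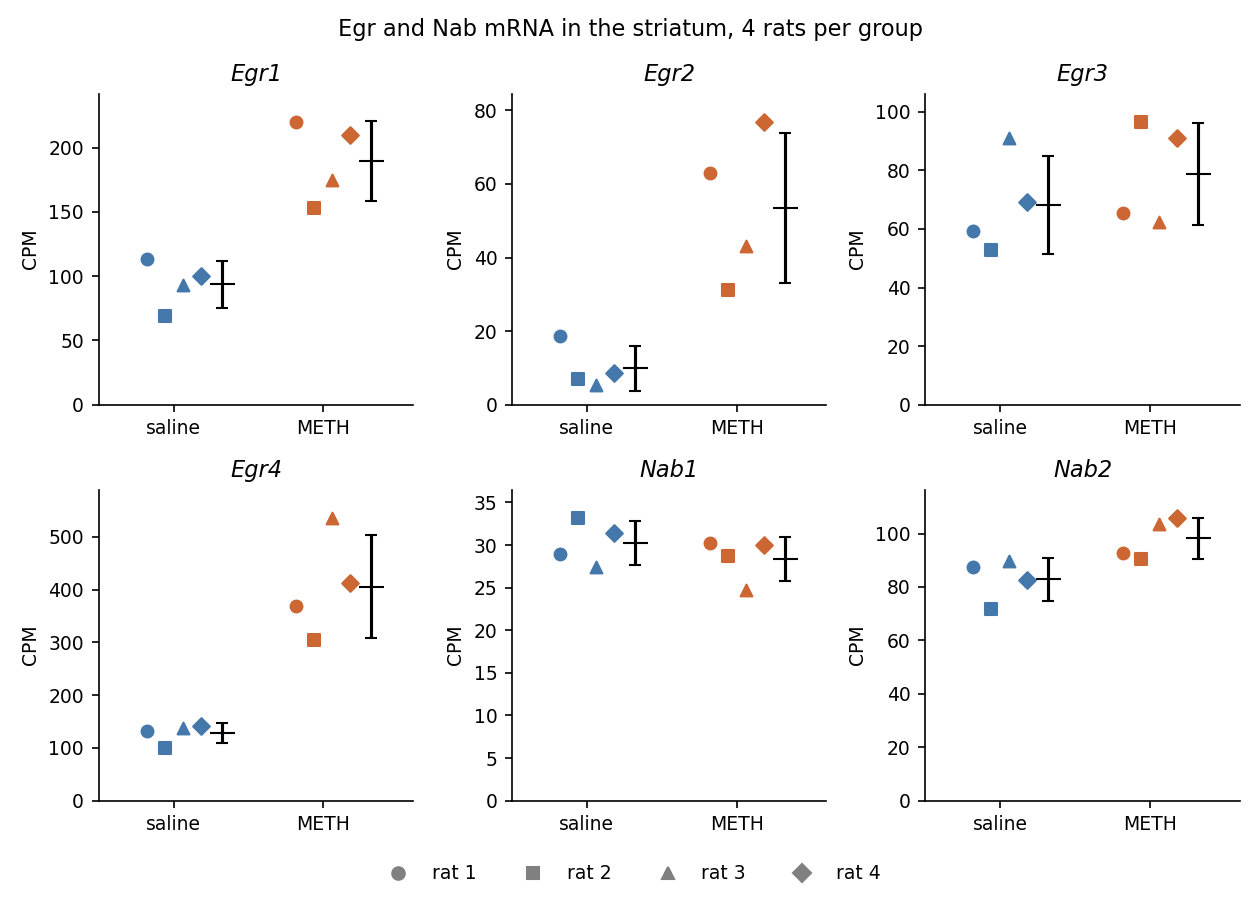
Expression of the 6 genes in CPM (vertical axes, each from 0) in saline rats (blue) and METH rats (orange); each symbol is 1 rat, with the same shape for the same rat number, and the bars give the mean ± SD (n = 4). Egr1, Egr2 and Egr4 lie clearly higher in METH rats, Egr3 and Nab1 overlap, and the Nab2 groups touch without overlapping.

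Nab2, the corepressor whose gene is induced by Egr proteins, was at 87.3, 71.7, 89.7 and 82.5 CPM in saline rats 1 to 4 and at 92.7, 90.6, 104 and 106 CPM in METH rats 1 to 4. The groups did not overlap, but only just, since the lowest METH rat was 1.01 times as high as the highest saline rat. The means were 82.8 ± 7.98 and 98.2 ± 7.70 CPM (SD, n = 4 each), with a log2 fold change of 0.25 (SE 0.09), which is 18.6% above the saline level. With 1 rat left out it ranged from 0.18 to 0.29. It was 0.31 without both saline rat 1 and METH rat 2, the lowest METH rat for Nab2. Nab2 was not called in the fit over all genes or in any of the alternatives.

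Nab1, the paralog of Nab2, was at 28.9, 33.2, 27.4 and 31.4 CPM in saline rats 1 to 4 and at 30.2, 28.7, 24.7 and 29.99 CPM in METH rats 1 to 4. The groups overlapped, and METH rat 3 was the lowest of all. The log2 fold change was -0.09 (SE 0.10), from 30.2 ± 2.58 to 28.4 ± 2.57 CPM (SD, n = 4 each). Without METH rat 3 it was -0.03.

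**Figure D2:**
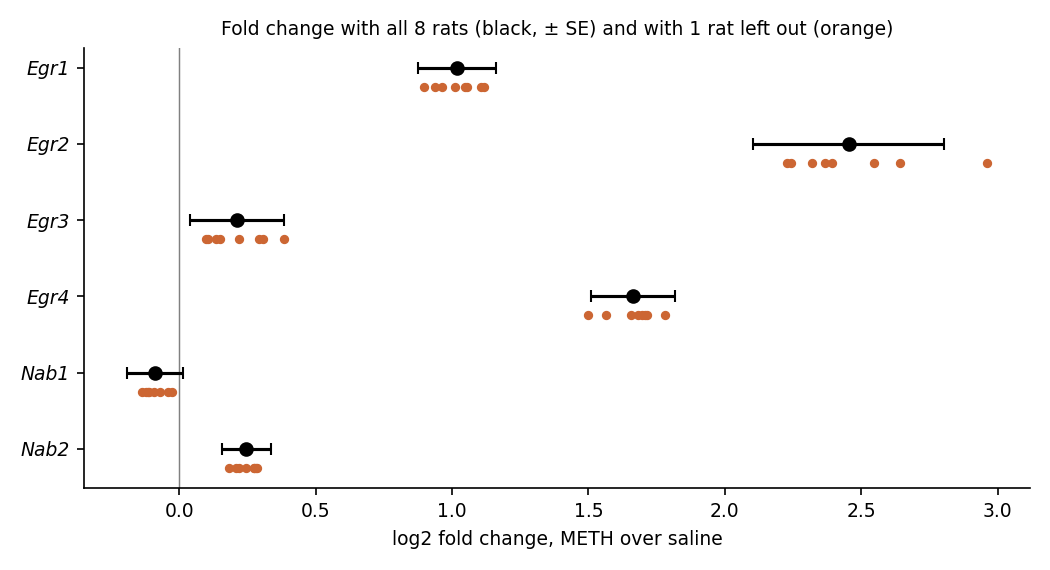
Log2 fold change of METH over saline (horizontal axis) for each gene. Black points with bars are the estimate from all 8 rats ± its standard error, and orange points are the 8 estimates with 1 rat left out; the farthest orange point is Egr2 without saline rat 1, at 2.96.

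The members also differed in how much they varied between rats of a group. The coefficient of variation of Egr2 was 61.7% in saline and 38.0% in METH rats. For Nab1 it was 8.52% and 9.06% and for Nab2 9.63% and 7.84%, so the corepressors varied least of the 6 genes. Egr1 (19.6% and 16.3%), Egr3 (24.7% and 22.1%) and Egr4 (14.5% and 24.1%) lay in between. Counting error, as the coefficient of variation expected from the number of reads alone, was 2.62% to 9.62% per rat for Egr2 and 3.88% to 4.78% for Nab1. The spread of Egr2 between rats was thus well above its counting error.

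The rats did not rank alike for all members. In the METH group, rat 2 was the lowest for Egr1, Egr2, Egr4 and Nab2 but the highest for Egr3. METH rat 3 was the highest for Egr4 and the lowest for Egr3 and Nab1. Rats 1 and 4 led for both Egr1 and Egr2. In the saline group, rat 2 was the lowest for Egr1, Egr3, Egr4 and Nab2 and the highest for Nab1. With 4 rats a group, no correlation between members is given.

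The likeness of profiles was measured as the root mean square difference over the 8 rats of log2 CPM, after the saline mean of each gene was set to 0. The closest pair of members was Egr3 and Nab2, at 0.27 log2 units, followed by Nab1 and Nab2 at 0.31. Egr1 and Egr4 differed by 0.50, Egr2 and Egr4 by 0.86, Egr1 and Egr2 by 1.15, and the most distant pair was Egr2 and Nab1 at 1.94. This measure follows the size of the METH difference as well as the shape across rats.

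**Figure D3:**
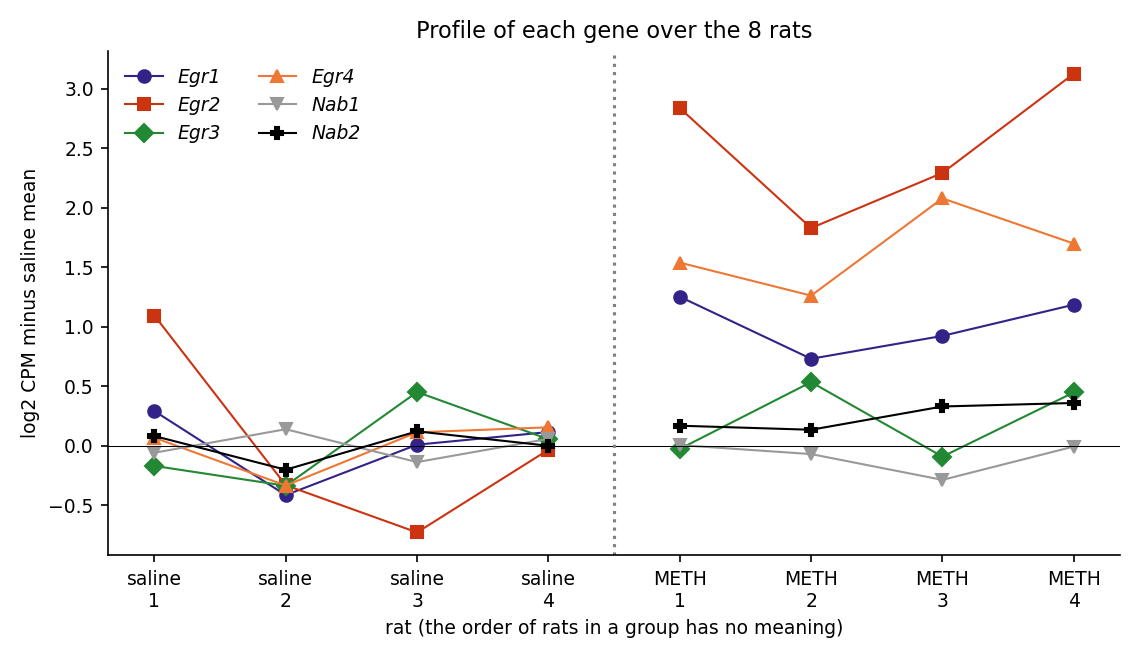
Log2 CPM of each gene minus its saline mean (vertical axis) in each of the 8 rats (horizontal axis); lines join the rats of a group only to guide the eye. Egr2 spans -0.73 to 1.09 in saline rats and 1.83 to 3.13 in METH rats, and Egr3 follows neither Egr1 nor Egr4 in the METH group.

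Outside the family, the genes nearest to Egr1 by the same measure were Rnd3 (0.24), which encodes an atypical small GTPase, Irs2 (0.24), an adaptor of the insulin receptor, and Rem2 (0.24), a GTPase regulated by neuronal activity. Their log2 fold changes ran from 0.93 to 1.00. The choice by nearness over all 8 rats fixes a METH difference like that of the member, so nothing is read from the size or the direction of the neighbours. The genes nearest to Egr4 were Pkp2 (0.27), Junb (0.31), an AP-1 factor, and Gpr3 (0.35), a receptor coupled to cAMP, with log2 fold changes from 1.41 to 1.50. The genes nearest to Egr2 were the row RGD1561282 (0.32), the row Mir132 (0.46) and the orphan nuclear receptor gene Nr4a1 (0.47). RGD1561282 was at 0.0929 ± 0.123 CPM (SD, n = 4) in saline and 0.740 ± 0.204 CPM (SD, n = 4) in METH rats, close to the floor of detection. Nr4a1 was at 80.2 ± 45.1 CPM (SD, n = 4) in saline and 302 ± 19.0 CPM (SD, n = 4) in METH rats. The choice by nearness also favours a saline spread like that of Egr2, so nothing is read from this spread.

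With 3 of the 4 Egr genes higher in METH rats and smaller differences in the Nab genes, the make-up of the Egr reads and their ratio to Nab reads was also set out per rat. Reads on the 4 Egr genes together made up 299.6 ± 46.9 CPM (SD, n = 4) in saline rats, from 229.4 to 326 CPM. They made up 727 ± 104 CPM (SD, n = 4) in METH rats, from 585 to 817 CPM, which is 2.43 times the saline mean. These sums rest on the same values that chose the family and are a description.

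Of the Egr reads, Egr4 held 42.8% ± 1.53 (SD, n = 4) in saline and 55.3% ± 6.90 (SD, n = 4) in METH rats, with no overlap. The highest share, 65.6%, was that of METH rat 3. Egr3 held 22.7% ± 3.99 of the Egr reads in saline and 11.2% ± 3.88 in METH rats (SD, n = 4 each), again with no overlap. The smaller share of Egr3 goes with the larger Egr total, since its own mean CPM was not lower in METH rats. Egr2 held 3.26% ± 1.78 and 7.28% ± 2.32 (SD, n = 4 each), and here saline rat 1, at 5.78%, overlapped METH rats 2 and 3. Egr1 held 31.2% ± 2.73 and 26.2% ± 3.79 (SD, n = 4 each), with overlap. Each share also depends on the length of the transcript, so shares are compared between rats and not between genes.

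Per 100 reads on the Egr genes, Nab2 had 27.0, 31.3, 27.5 and 25.9 reads in saline rats 1 to 4 and 12.9, 15.5, 12.7 and 13.4 reads in METH rats 1 to 4. The METH values were all below the saline values, with a mean of 13.6 ± 1.27 against 27.9 ± 2.35 (SD, n = 4 each). This ratio is lower through its denominator, the Egr reads that chose the family, while Nab2 itself was 18.6% above its saline level. For Nab1 the means were 3.99 ± 0.788 in METH and 10.4 ± 2.77 in saline rats (SD, n = 4 each), with no overlap. The Egr reads in both ratios include Egr4, which held 42.8% of them in saline and 55.3% in METH rats. The domain that Nab proteins bind was named above for Egr1, Egr2 and Egr3, and a ratio to the reads of these genes alone was not computed. The ratio of Nab2 to Nab1 reads was 2.77 ± 0.486 in saline and 3.49 ± 0.517 in METH rats (SD, n = 4 each), and these ranges overlapped.

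**Figure D4:**
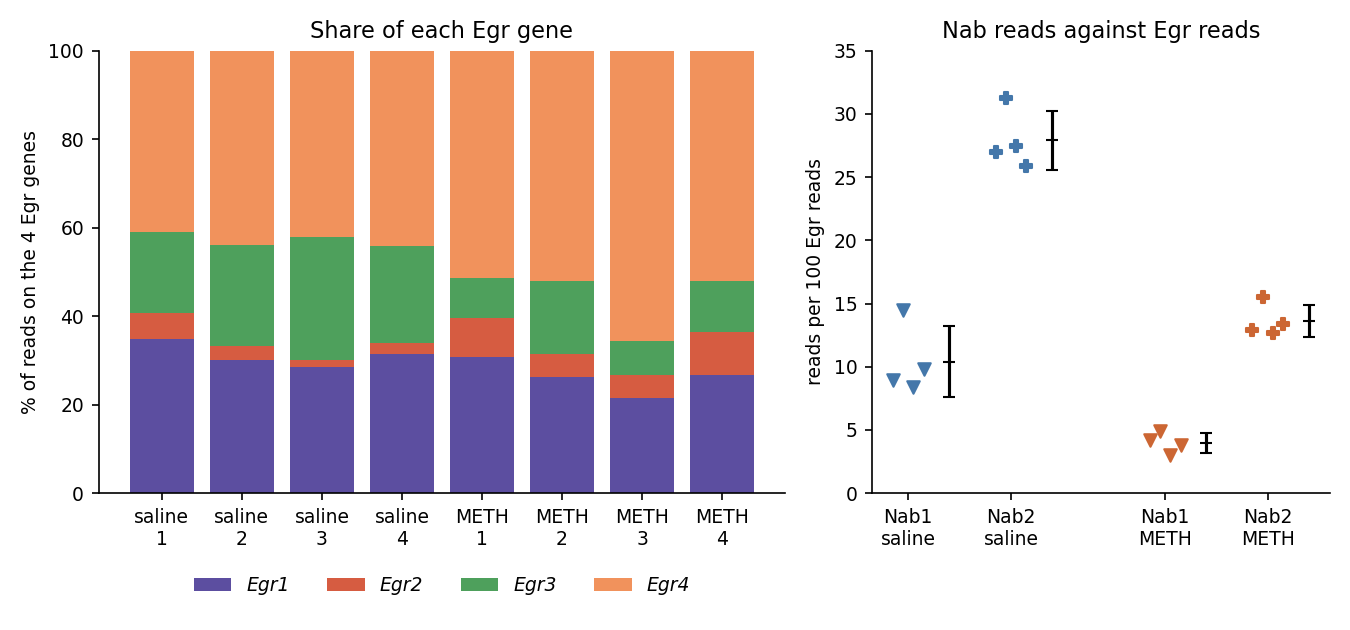
Left, the percentage of reads on the 4 Egr genes that fell on each of them in each rat; right, Nab1 and Nab2 reads per 100 Egr reads (vertical axis from 0) in saline (blue) and METH rats (orange), each symbol 1 rat, with mean ± SD (n = 4). The share of Egr3 is smaller and that of Egr4 larger in METH rats, and the mean of Nab2 is 27.9 reads per 100 Egr reads in saline and 13.6 in METH rats.

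Genes related to the family were followed in lists from general knowledge, which were chosen with earlier results of these data known. The calls and FDR values of genes in these lists are therefore a description. Beside the counts of every list, 0.449% of all genes tested were called higher and 0.0666% lower. Of 25 genes described as direct targets of Egr proteins in neurons or other cells, 24 were in the data and tested, 3 were called higher and 0 lower. At an unadjusted p below 0.05 in edgeR, 3 were higher and 1 was lower, and DESeq2 and limma-voom also called 0 of them lower. Their median log2 fold change was -0.02, near the -0.01 of all genes. The 3 called genes are also known as activity-regulated genes.

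Arc, whose product acts in the dendritic spine and whose gene has an Egr-binding upstream element, was at 228, 116, 75.8 and 99.3 CPM in saline rats 1 to 4. In METH rats 1 to 4 it was at 469, 307, 485 and 547 CPM, all above the saline rats. The log2 fold change was 1.80 (SE 0.28, FDR = 0.00731 by the edgeR quasi-likelihood test). As for Egr2, saline rat 1 was the highest of its group, the log2 fold change without it was 2.22, and the robust fit lost the call (FDR = 0.144; range over the alternatives 3.59e-06 to 0.144). Per1, a clock gene that also responds early to stimuli, rose from 88.3 ± 8.04 to 147 ± 14.1 CPM (SD, n = 4 each; log2 fold change 0.74, SE 0.09, FDR = 0.00152 by the same edgeR test). Fosb, an AP-1 subunit, rose from 20.6 ± 4.87 to 49.5 ± 10.3 CPM (SD, n = 4 each), with a log2 fold change of 1.26 (SE 0.17, FDR = 0.00306 in edgeR). Per1 and Fosb were called in every alternative.

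Other described targets gave small values with no call. The synapsin genes Syn1 and Syn2 had log2 fold changes of -0.04 and -0.12, Cdk5r1, which encodes the Cdk5 activator p35, had -0.09, and Dlg4, which encodes the scaffold PSD-95, had 0.09.

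Of 17 factors and kinases upstream of Egr gene transcription, 15 were in the data and tested, and 0 were called by edgeR in either direction. At an unadjusted p below 0.05, 1 was higher and 2 were lower. Srf, which encodes the factor that binds CArG boxes, was at 166, 166, 188 and 169 CPM in saline rats 1 to 4 and at 202, 222, 236 and 216 CPM in METH rats 1 to 4. Its groups did not overlap, and its log2 fold change was 0.35 (SE 0.08, FDR = 0.0720 in edgeR). Srf was called by DESeq2 (FDR = 0.00140) and in the edgeR fit without saline rat 3 (FDR = 0.0475), its highest saline rat. Over all alternatives the FDR of Srf ranged from 0.00140 to 0.245. Elk3, a partner of Srf, had a log2 fold change of -0.40 (SE 0.15, FDR = 0.345 in edgeR). The groups were separated the other way for Rps6ka1, a kinase gene, with every METH rat below every saline rat. Its log2 fold change was -0.29 (SE 0.11, FDR = 0.358 in edgeR). Over all genes tested, 6.39% were separated in one direction or the other. Mapk3, which encodes an ERK kinase controlled by phosphorylation that these data do not measure, had 0.02.

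Of 14 subunits of NuRD, the complex Nab2 recruits, 11 were in the data and tested, and 0 were called by edgeR, DESeq2 or limma-voom. At an unadjusted p below 0.05 in edgeR, 1 was higher and 0 were lower. Mbd3 had the lowest p, with a log2 fold change of 0.27 (SE 0.12, FDR = 0.430 in edgeR), and Hdac1, a histone deacetylase, had -0.25 (SE 0.12, FDR = 0.450 in edgeR). The median of the list was -0.01.

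Of 5 other zinc finger factors of GC-rich sites, 3 passed the filter, all 3 had negative log2 fold changes, and 0 were called by edgeR, DESeq2 or limma-voom. Sp1 had -0.24 (SE 0.10, FDR = 0.394 in edgeR), the 1 gene of the list with an unadjusted p below 0.05, and Sp2 had -0.12. Wt1, the closest relative of the Egr genes in this list, had 0 reads in every rat. Of 7 myelin genes, among them Prx, a target of Egr2 in Schwann cells, 0 were called by the same 3 tools and 0 had an unadjusted p below 0.05 in edgeR. Prx had a log2 fold change of -0.02 and Gjb1, which encodes a gap junction protein, had -0.14.

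**Figure D5:**
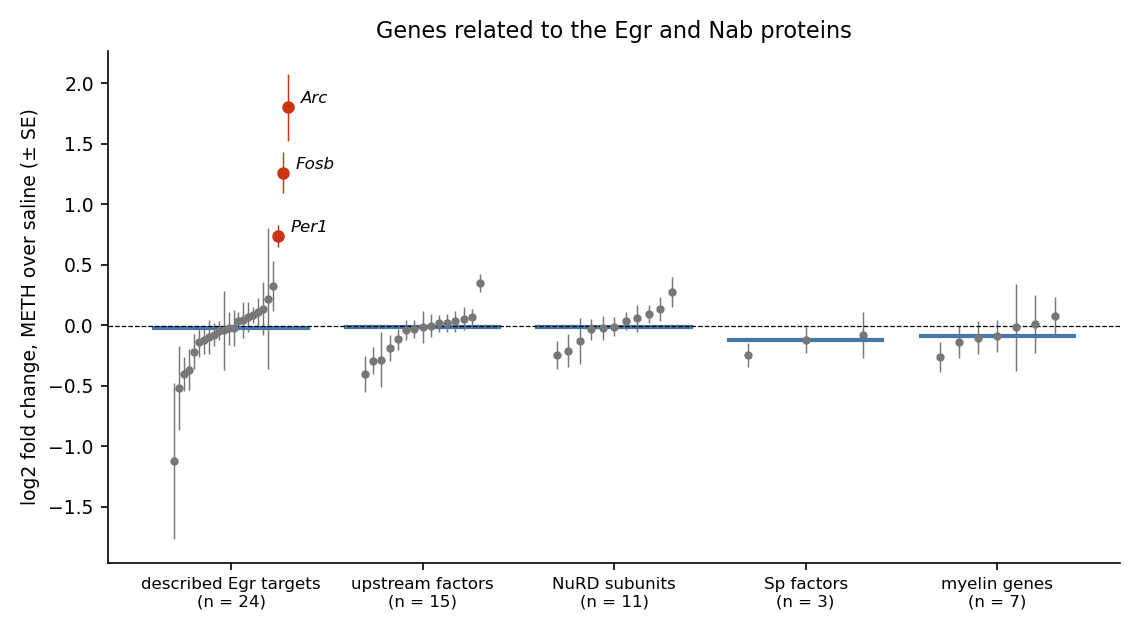
Log2 fold change of METH over saline ± standard error (vertical axis) for the tested genes of each related list (horizontal axis); red points were called, blue lines are list medians and the dashed line is the median of all genes tested. Arc, Fosb and Per1 are the called genes, and the list medians lie between -0.12 and -0.01.

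Markers of other cells were set beside these values. Choroid plexus markers summed to 2.47 to 3.96 CPM in saline and 4.85 to 6.51 CPM in METH rats, without overlap but at a very low level, and 2 of the 6 passed the filter. Microglial markers summed to 236 to 275 CPM in saline and 198 to 243 CPM in METH rats, with 1 of 6 called lower and 2 of 6 lower at an unadjusted p below 0.05 in edgeR. Oligodendrocyte, astrocyte, endothelial and interneuron sums overlapped between the groups, with 0 markers called in edgeR. At an unadjusted p below 0.05, 1 oligodendrocyte and 2 endothelial markers were lower. The part of cell composition in the values of the Egr and Nab genes was not tested.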

How the data were processed

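Striatal poly(A) RNA from 4 METH and 4 saline rats was sequenced. Per the submitters' processing notes and methods, the authors used Cutadapt 1.18 for trimming of paired-end reads, STAR 2.7.0e for alignment (build rn6) and featureCounts of Subread 1.6.4 for counting per gene, and deposited raw counts, 1 column per rat. Annotation, strand setting and multi-mapping are not given in the sources used here.

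Counts were filtered with filterByExpr, scaled by TMM and tested over all genes with the quasi-likelihood test in edgeR 4.0.16 (R 4.3.3) with Benjamini-Hochberg adjustment. The standard error is the log2 fold change divided by the square root of F. For log2 CPM the prior count was 2. The fit was tested on simulated counts. DESeq2 1.42.0, limma-voom (limma 3.58.1), other scalings, filters, a robust fit, each rat left out and a replicate block were alternatives. Counting errors cover counting only, and sequencing reads carried no molecular identifiers.

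The members and lists were chosen with earlier results of these data known. Genes named are the members, Actb as a scaling reference, the called genes of each list or else the 2 with the lowest p, and for members beyond an absolute log2 fold change of 1 the 3 nearest profiles. Other genes, such as Syn1, Dlg4, Prx, Rps6ka1 and Nr4a2, were named after their values were seen. Some genes the rule names are not reported here, and listed genes without values were not analysed here.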

Additional observations from a re-analysis of the deposited data

Results flagged for a closer look

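In 54 groups of 4 rats, 27 named genes in each group of rats, the gap from the most distant rat to its nearest neighbour was compared with the range of the group. In 3 groups, 5.56%, it was past Dixon's critical value, where chance gives about 5% of groups. No Egr or Nab gene was among them. Junb, a neighbour of Egr4 by profile, was highest in saline rat 1 with a share of 0.851. Sp2 was lowest in saline rat 2 with a share of 0.841. Srf was highest in saline rat 3 with a share of 0.831, and this is the rat without which Srf was called. Leaving out the highest saline rat enlarges the difference, so that call follows from the choice of rat. With any other single rat left out, Srf was not called, at an FDR of 0.0517 to 0.208 in edgeR.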

How the results depend on the processing

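Egr1 and Egr4 were called higher in all 19 alternative fits, Egr2 in all but the robust fit, and Egr3, Nab1 and Nab2 in none. With 1 rat left out, the log2 fold change ranged from 0.90 to 1.12 for Egr1, 2.23 to 2.96 for Egr2 and 1.50 to 1.78 for Egr4. Without saline rat 1 and METH rat 2, an alternative added after the data were seen, Egr2 was at 3.15. These were its highest saline and its lowest METH rat, so the larger value follows from the choice of rats. DESeq2 called 191 genes over the whole table (141 higher, 50 lower) in place of 62 (54 higher, 8 lower), and 1 upstream factor, Srf. With every gene of at least 1 count, 13 genes were lower. The cause of these shifts in the number of calls was not tested. With 1 rat left out, 37 to 70 genes were called, 35 to 66 higher and 2 to 9 lower, the fewest without saline rat 2, with 37, 35 and 2. Lower calls were 4 without saline rat 4, METH rat 1 or METH rat 3, and upstream factors called higher ranged from 0 to 1. Rats with the same number are different animals, and the correlations of their deviations were 0.01, -0.19, -0.20 and 0.04. A fit with that number as replicate block called 37 (35 higher, 2 lower), the same 3 members included. Scaling to Actb put the median of all genes at -0.03. Every member had at least 108 reads in each rat.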

Other observations

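Nr4a2, an orphan nuclear receptor gene in the list of described Egr targets, had 201 reads in saline rat 1 and 28 to 33 reads in the other saline rats, at 11.0 CPM against 1.32 to 1.59 CPM. In METH rats it was at 0.685 to 2.48 CPM. This is the saline rat with the high cortical markers. Neurod6 had 66 reads in it against 0 to 13 in the other rats, and Tbr1 had 69 reads against 1 to 9. Cux2, of the same list, was little raised, at 17.7 CPM in saline rat 1 and 16.3 CPM in saline rat 2. The part of cortical transcripts in the Nr4a2 level was not tested.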
